A study of Mus musculus with 8 samples.

Results

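The mitochondrial proteases and prohibitins are a set of 10 named genes of the 54532 in the deposited table: Lonp1, Clpp, Clpx, Afg3l1, Afg3l2, Spg7, Htra2, Phb, Phb2 and Lrpprc. They were chosen by gene symbol, and each was found once. RNA of mouse brown adipose tissue, the fat depot that makes heat, was sequenced in 4 WT mice and in 4 mice of the genotype TG (CLCF1-ATG), 1 library per mouse. The mice carry the numbers 1, 2, 3 and 5 in each genotype. CLCF1 is a cytokine that signals through gp130-type receptors, and the study's title concerns its effect on thermogenesis and on the making of mitochondria. Clcf1 stood at 0.434 to 3.40 FPKM in the WT libraries and at 78.7 to 89.9 FPKM in the TG libraries, so every library followed its label. The sources used here give no promoter for the transgene and no strain, age or sex of the mice. FPKM are fragments per kilobase of gene, with a scaling per library, which puts genes of different length on a common scale. Comparisons between libraries depend on how the libraries were scaled.

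Proteins inside mitochondria are turned over by proteases that live there. In the matrix the AAA+ protease LONP1 removes oxidised and unassembled proteins, and CLPX, a ring-shaped unfoldase, feeds substrates to the CLPP peptidase chamber. In the inner membrane the m-AAA proteases are rings of AFG3L2, alone or with SPG7 (paraplegin) or, in the mouse, with AFG3L1, and the prohibitins PHB and PHB2 form a large ring scaffold that binds them. HTRA2 is a serine protease of the intermembrane space. LRPPRC is no protease: with its partner SLIRP it binds messenger RNAs transcribed from mitochondrial DNA and keeps them stable and polyadenylated. Brown adipocytes are packed with mitochondria, which makes protein quality control a large task in this tissue.

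Of the 10 genes 7 were lower in TG, 1 was higher and 2 did not pass the test. Lonp1, Clpp, Afg3l2, Spg7, Phb, Phb2 and Lrpprc fell, Htra2 rose, and Clpx and Afg3l1 were the members that did not pass. The test was limma on log2(FPKM + 1) with Benjamini-Hochberg adjustment over all 12508 genes tested, and a gene was called at an adjusted p under 0.05. Of all tested genes 21.8% were called lower and 22.3% higher. The TG values of those 7 genes all lay below the WT values, as they did in 20.5% of tested genes, while in 22.1% they all lay above. The median log2 change (TG minus WT) was -0.85 over the 10 members and 0.01 over all tested genes. In bulk tissue, fewer cells of a type and less RNA per cell cannot be told apart.

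The libraries held 13734231 to 15751302 recovered reads in WT and 18494022 to 20183840 in TG, and the members had between 128 (Htra2 in WT 5) and 6501 reads (Phb in WT 3) in a library. The authors' FPKM hold a scaling beyond the read total. When the libraries were divided by all recovered reads, the median log2 change of all genes moved from 0.01 to 0.32, and with libraries rescaled on what remains once mitochondrial and haemoglobin genes and the 20 most abundant are left out (the rescaling without abundant genes) it moved to 0.28. The calls then moved from 2788 higher and 2725 lower genes to 5570 and 1416 with the former and to 5322 and 1530 with the latter. Reads on the mitochondrial chromosome were 24.1% to 37.5% of a WT library and 6.09% to 7.34% of a TG library. The summed FPKM of 10 brown adipocyte markers was 2970 to 4880 in WT and 181 to 423 in TG. Of the 9 of these markers that were tested, 6 fell and 1 rose, where 21.8% of all tested genes fell and 22.3% rose. Such a sum can rest on its most abundant markers. The 10 markers shared by all adipocytes summed to 9080 to 10800 FPKM in WT and 22900 to 34800 in TG. Macrophage markers stood at 225 to 372 in WT and 382 to 461 in TG, and fibroblast markers at 113 to 202 and 174 to 253. Of 8 macrophage markers tested 0 fell and 5 rose, and of 7 fibroblast markers 1 fell and 2 rose, the latter near the shares of all genes. Endothelial markers stood at 44.5 to 102 in WT and 10.8 to 22.0 in TG, pericyte and smooth muscle markers at 107 to 140.0 and 19.0 to 40.6, and erythroid markers at 5110.0 to 12900 and 1530.0 to 1900.0. Neutrophil markers ran from 13.5 to 394 in WT and 4.22 to 26.7 in TG, T cell markers from 1.24 to 4.22 and 1.60 to 8.95, B cell markers from 1.33 to 2.02 and 1.36 to 13.2, and Schwann cell markers from 6.78 to 7.67 and 5.20 to 7.07. Skeletal muscle markers were high in WT 2 (2270.0) and TG 5 (1230.0) and 39.3 to 230.0 elsewhere, and without those libraries the same 7 members fell. No marker was at 0 in all 8 libraries. The part of tissue makeup in the results on the 10 genes was not tested.

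**Figure D1:**
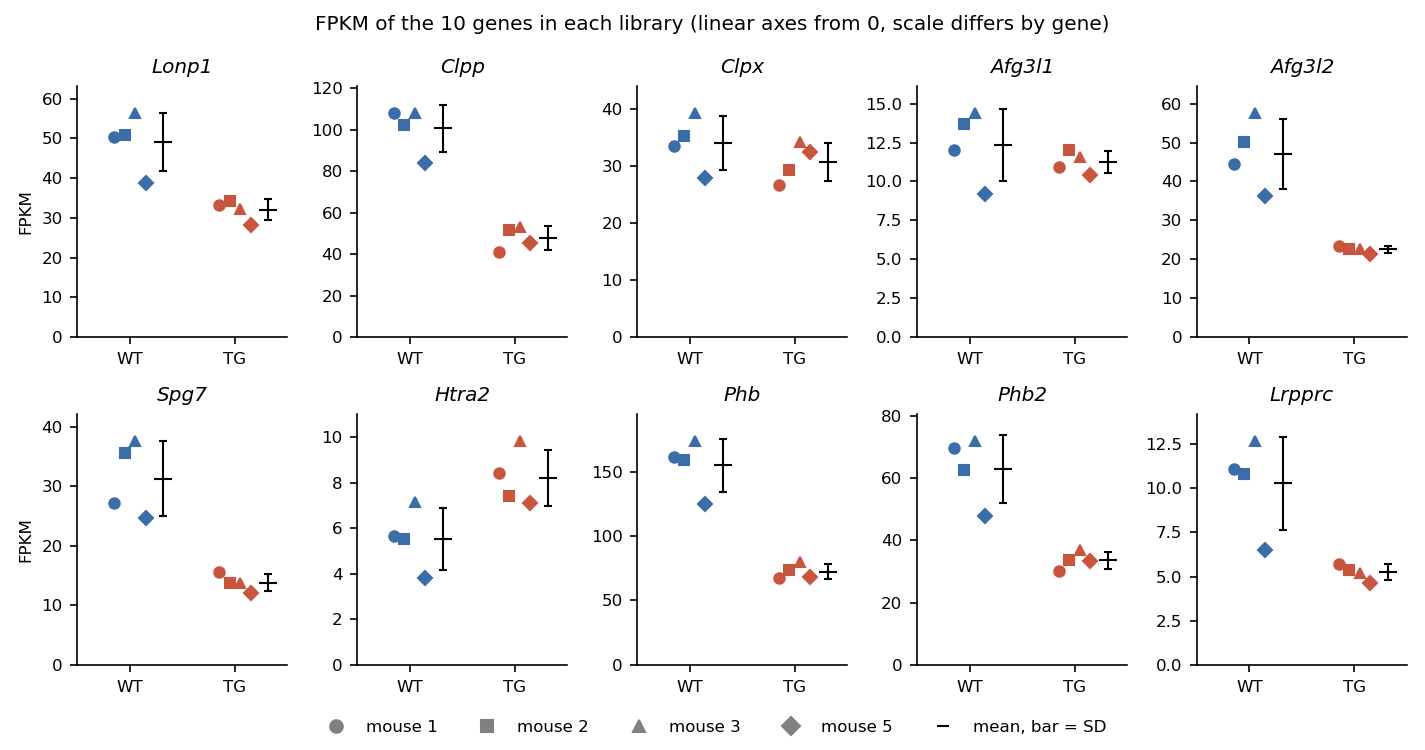
FPKM of each of the 10 genes in the 8 libraries (vertical axes linear from 0, with their own scale per gene), by genotype; symbols mark the mouse number, and the black mark and bar are the mean and SD of 4 libraries. All TG points lie below all WT points for Lonp1, Clpp, Afg3l2, Spg7, Phb, Phb2 and Lrpprc, and WT 5 is the lowest WT point in every panel.

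The matrix proteases came out unequal. Clpp, which encodes the proteolytic chamber (ENSMUSG00000002660, chromosome 17, 56990305 to 56996188, plus strand), stood at 108, 102, 108 and 84.1 FPKM in WT 1, 2, 3 and 5 and at 41.0, 51.5, 53.1 and 45.4 FPKM in TG 1, 2, 3 and 5. The highest TG library was well under the lowest WT library. Its level in TG was 47.5% of that in WT, and its log2 change was -1.06 (95% interval -1.34 to -0.78, SE 0.125, limma adjusted p = 0.000146). Clpx, its unfoldase (ENSMUSG00000015357, chromosome 9, 65294260 to 65330658, plus strand), stood at 33.5, 35.2, 39.3 and 27.9 FPKM in WT and at 26.7, 29.3, 34.2 and 32.4 FPKM in TG. These groups overlapped, with WT 5 among the TG values. The log2 change of Clpx was -0.14 (95% interval -0.43 to 0.15, limma adjusted p = 0.404), and this interval covers falls of up to 0.43 as well as small rises. Under the scalings by all reads and without abundant genes it was 0.28 and 0.23, still short of the threshold. Relative to the median of all genes under those scalings, Clpx was at -0.04 and -0.05.

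Because a ratio taken inside a library does not depend on how libraries are scaled, Clpp was also compared with Clpx directly. The ratio of their FPKM was 3.21, 2.91, 2.74 and 3.02 in WT 1, 2, 3 and 5 and 1.53, 1.75, 1.55 and 1.40 in TG 1, 2, 3 and 5. Every TG library had a lower ratio than every WT library. The ratio fell to 0.525 of its WT level, a log2 difference of -0.93 (1.57 ± 0.096 in WT and 0.638 ± 0.133 in TG, SD, n = 4 mice per genotype). An exact two-sided permutation over the 70 assignments gave p = 0.0286, their minimum, and an adjusted p of 0.0477 over the 5 ratios tested. Without any 1 TG library the adjusted p was 0.0714, which misses the threshold. The raw permutation p of this ratio stayed at 0.0286 there, the smallest that 4 against 3 mice can give. The adjusted p moved because the raw p of the Phb to Phb2 ratio, adjusted together with it, rose to 0.0571.

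The upstream sequences of this pair are shown because its members encode parts of 1 enzyme and differed in response. Both are the 250 bases before the RefSeq start (GRCm38.p6, plus strand), chr17:56990014-56990263 for Clpp and chr9:65294010-65294259 for Clpx, with motif matches in capitals.
Clpp: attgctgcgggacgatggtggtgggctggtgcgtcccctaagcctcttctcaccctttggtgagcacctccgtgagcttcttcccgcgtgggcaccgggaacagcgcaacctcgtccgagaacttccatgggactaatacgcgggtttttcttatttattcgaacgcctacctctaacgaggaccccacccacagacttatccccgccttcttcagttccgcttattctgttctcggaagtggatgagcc
Clpx: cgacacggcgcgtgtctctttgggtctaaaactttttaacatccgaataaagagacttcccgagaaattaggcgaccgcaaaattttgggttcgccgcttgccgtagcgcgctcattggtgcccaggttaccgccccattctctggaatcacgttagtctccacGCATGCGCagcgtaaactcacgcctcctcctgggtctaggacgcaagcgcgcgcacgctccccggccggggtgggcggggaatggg
Clpx holds 1 match to an NRF1 core motif, read as GCATGCGC, which starts 86 bases before the RefSeq start. NRF1 is a transcription factor of many nuclear genes for mitochondrial proteins. RefSeq promoters (250 bases before to 50 after the start) were found for 8 of the 10 genes. Searched on both strands, the NRF1 core GCGCATGC was found in 1 of these 8 and in 2.71% of all 32851 promoters. The letters AAGGTCA (ERR), AAGATGGCG (YY1) and TGATGCAAT (ATF4) were found in none of the 8, and in 4.72%, 1.40% and 0.192% of all promoters. The 8 upstream windows held 13 to 29 CG dinucleotides, against a median of 6 over all promoters. These matches describe letters in a window and show no binding.

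Lonp1, the Lon protease of the matrix (ENSMUSG00000041168, chromosome 17, 56614297 to 56626887, minus strand), lies 363 kb from Clpp on the same chromosome. It stood at 50.4, 50.8, 56.4 and 38.8 FPKM in WT 1, 2, 3 and 5 and at 33.3, 34.3, 32.3 and 28.3 FPKM in TG 1, 2, 3 and 5. The groups did not overlap, although WT 5 came near the TG libraries. Its TG level was 65.3% of WT, and the log2 change came to -0.59 (SE 0.129, limma adjusted p = 0.00484). That is the smallest change among the 7 members that fell. The call of Lonp1 did not hold when libraries were divided by all reads (-0.17, adjusted p = 0.340) or under the rescaling without abundant genes (-0.22, 0.133). Relative to the median of all genes under those scalings, the difference of Lonp1 was -0.49 and -0.50.

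**Figure D2:**
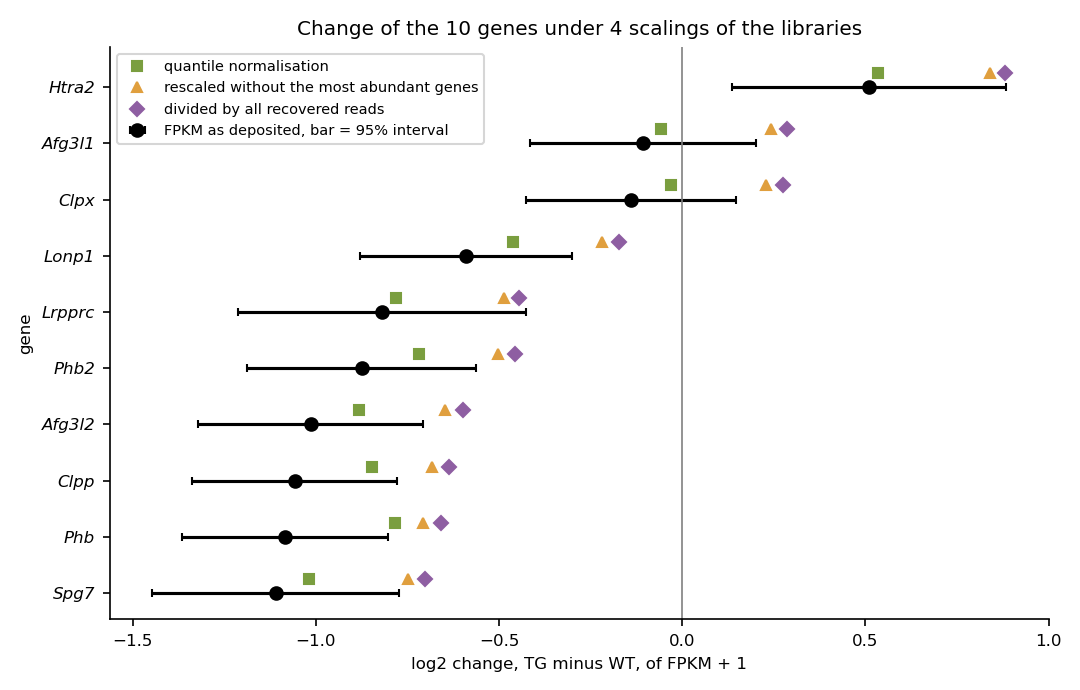
Log2 change (TG minus WT, horizontal axis) of the 10 genes under the deposited FPKM scaling, with 95% intervals, and under 3 other scalings of the libraries. All 10 genes lie higher under the 3 other scalings than under the deposited one. The median of all genes moves from 0.01 to 0.05 (quantile), 0.28 (without abundant genes) and 0.32 (all reads). Clpp, Afg3l2, Spg7, Phb and Phb2 stay below 0 and past the threshold under all 4. Lonp1 and Lrpprc stay below 0 but miss the threshold with division by all reads, Lonp1 also without abundant genes. Clpx and Afg3l1 cross 0 under those scalings.

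In the inner membrane, the subunits of the m-AAA protease split in the same way. Spg7, which encodes paraplegin (ENSMUSG00000000738, chromosome 8, 123062942 to 123097760, plus strand), stood at 27.2, 35.6, 37.7 and 24.7 FPKM in WT 1, 2, 3 and 5 and at 15.7, 13.7, 13.8 and 12.1 FPKM in TG 1, 2, 3 and 5. All TG libraries were lower than all WT libraries. It had the largest log2 change of the 10 genes, -1.11 (SE 0.150, limma adjusted p = 0.000327), and a TG level of 44.1% of WT. Afg3l2, the core subunit (ENSMUSG00000024527, chromosome 18, 67404767 to 67449166, minus strand), stood at 44.6, 50.1, 57.6 and 36.3 FPKM in WT and at 23.5, 22.7, 22.6 and 21.3 FPKM in TG. The TG values lay close together and below every WT value. Afg3l2 fell by 1.01 on the log2 scale (SE 0.137, limma adjusted p = 0.000326). The deposited length of Afg3l2 is 3085 bases and that in the GENCODE M21 annotation 9874, so its level against other genes depends on the gene model.

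Afg3l1, the third m-AAA gene (ENSMUSG00000031967, chromosome 8, 123477903 to 123503916, plus strand), lies 380 kb from Spg7. It stood at 12.0, 13.7, 14.4 and 9.18 FPKM in WT 1, 2, 3 and 5 and at 10.9, 12.0, 11.6 and 10.4 FPKM in TG 1, 2, 3 and 5. The TG values fell inside the WT range. Its log2 change was -0.11 (95% interval -0.42 to 0.20, limma adjusted p = 0.553), and 0.29 and 0.24 under division by all reads and under the rescaling without abundant genes, neither past the threshold. Relative to the median of all genes under those scalings, Afg3l1 was at -0.03 and -0.04.

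Relative to its paralogue Afg3l2, Afg3l1 was higher in TG. The ratio of Afg3l1 to Afg3l2 was 0.269, 0.273, 0.251 and 0.253 in WT 1, 2, 3 and 5 and 0.462, 0.530, 0.514 and 0.487 in TG 1, 2, 3 and 5. The genotypes did not overlap, and the ratio was 1.91 times higher in TG (log2 difference 0.93, SD 0.062 in WT and 0.088 in TG, n = 4 mice per genotype; exact two-sided permutation p = 0.0286, adjusted p = 0.0477). Without any 1 TG library the adjusted p of this ratio was also 0.0714, while its raw permutation p again stayed at the minimum of 0.0286. The level of the ratio rests on the deposited length of Afg3l2. That length cancels in the change between genotypes, but whether reads counted on another gene model would alter the change was not tested. Spg7 and Afg3l2, by contrast, kept a similar ratio, 0.611 to 0.710 in WT and 0.567 to 0.667 in TG. These ranges overlapped (log2 difference -0.12, two-sided exact permutation p = 0.143, adjusted p = 0.179), which does not show that the ratio was the same.

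**Figure D3:**
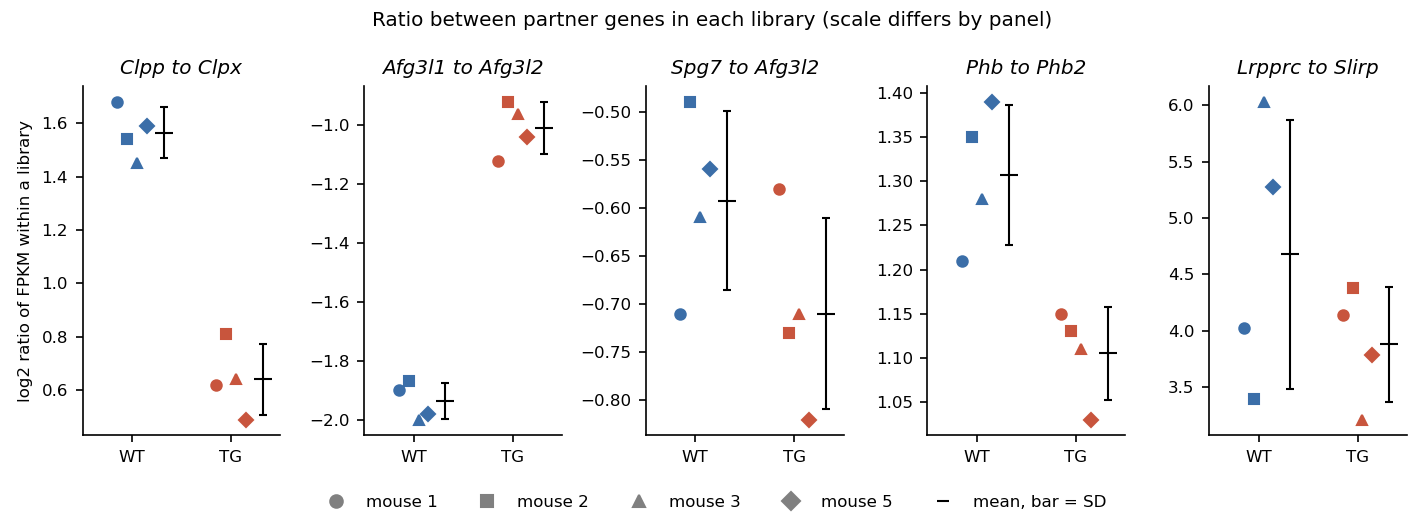
Log2 ratio of FPKM between partner genes within each of the 8 libraries (vertical axis, scale differs by panel), by genotype; symbols mark the mouse number, and the black mark and bar are the mean and SD of 4 libraries. Clpp to Clpx, Afg3l1 to Afg3l2 and Phb to Phb2 separate the genotypes, while Spg7 to Afg3l2 and Lrpprc to Slirp overlap.

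Both prohibitin genes fell. Phb (ENSMUSG00000038845, chromosome 11, 95666957 to 95680773, plus strand) stood at 161, 159, 174 and 125 FPKM in WT 1, 2, 3 and 5 and at 67.2, 73.8, 79.7 and 68.3 FPKM in TG 1, 2, 3 and 5. No TG library came near the lowest WT library. The log2 change was -1.08 (SE 0.126, limma adjusted p = 0.000129) and the TG level was 46.6% of WT. Phb2 (ENSMUSG00000004264, chromosome 6, 124712336 to 124716950, plus strand) stood at 69.7, 62.5, 72.0 and 47.8 FPKM in WT and at 30.3, 33.6, 36.9 and 33.4 FPKM in TG. It fell by 0.88 on the log2 scale (SE 0.140, limma adjusted p = 0.000864), again with no overlap.

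The Phb to Phb2 ratio was 2.31 to 2.62 in WT and 2.04 to 2.22 in TG, a small shift that nevertheless separated the genotypes (log2 difference -0.20, SD 0.080 in WT and 0.053 in TG, n = 4 mice per genotype; exact two-sided permutation p = 0.0286, adjusted p = 0.0477). The adjusted p was 0.0714 to 0.0952 without any 1 TG library. The value of Phb is uncertain in part, since the processed pseudogene Gm7666 matches 45.5% of its longest coding transcript at 99.9% identity. Gm7666 was itself listed at 13.8 to 21.3 FPKM in WT and 9.48 to 10.3 FPKM in TG, and the sources used here do not say how reads were shared between the copies. The other 4 Phb pseudogenes with matches of this kind were listed at 0 in every library.

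Htra2 was the member that rose. Htra2 (ENSMUSG00000068329, chromosome 6, 83051266 to 83055273, minus strand) stood at 5.68, 5.53, 7.15 and 3.80 FPKM in WT 1, 2, 3 and 5 and at 8.43, 7.44, 9.85 and 7.11 FPKM in TG 1, 2, 3 and 5. The groups overlapped by a narrow margin, TG 5 lying just under WT 3. The log2 change was 0.51 (SE 0.167, 95% interval 0.14 to 0.88, limma adjusted p = 0.0325). The call of Htra2 did not hold without WT 2 (adjusted p = 0.0598), WT 5 (0.0544), TG 1 (0.0730), TG 2 (0.0511) or TG 3 (0.0905), and with no filter on low values (0.0765). Over its 20 alternatives the log2 change of Htra2 ran from 0.37 to 0.88 and the adjusted p from 0.00127 to 0.0905. Of its exon bases 43.7% are shared with genes on the opposite strand, Aup1 (25.6%) and Loxl3 (18.2%). Aup1 stood at 25.2 to 27.0 FPKM in WT and 19.6 to 24.5 in TG, and Loxl3 at 0.343 to 0.683 and 0.266 to 0.930. The sources used here name no strand setting, and the part of this overlap in the result was not tested.

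Lrpprc, the binding protein of mitochondrial messenger RNA (ENSMUSG00000024120, chromosome 17, 84705247 to 84790789, minus strand), stood at 11.1, 10.8, 12.7 and 6.52 FPKM in WT 1, 2, 3 and 5 and at 5.74, 5.39, 5.22 and 4.63 FPKM in TG 1, 2, 3 and 5. WT 5 lay nearer to the TG libraries than to the other WT libraries, but above them. The TG level was 51.1% of WT and the log2 change -0.82 (SE 0.175, limma adjusted p = 0.00440). Dividing by all reads ended the call (-0.45, adjusted p = 0.0715; over its 20 alternatives the adjusted p ran from 0.000133 to 0.0715). Relative to the median of all genes Lrpprc was then at -0.76, against -0.83 with the deposited scaling.

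Slirp, the partner of LRPPRC, was listed at only 0.169 to 1.03 FPKM in WT and 0.259 to 0.564 FPKM in TG, from 6 to 43 reads a library, and was not tested. Exons of other genes, Snw1 and Alkbh1 on the opposite strand, cover 97.8% of its exon bases in GENCODE M21. The Lrpprc to Slirp ratio ran from 10.5 to 65.3 in WT and from 9.26 to 20.8 in TG (log2 difference -0.80, two-sided exact permutation p = 0.286, adjusted p = 0.286), and the ranges overlapped. With a pseudocount of 1 added to both genes the log2 difference was -0.71 and the permutation adjusted p 0.0357. That pseudocount is near or above every Slirp value, so this difference mainly follows Lrpprc and says little on the ratio. It also depends on how libraries are scaled.

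Ordered by FPKM, the genes in WT ran from Phb (155) through Clpp (100.4), Phb2 (63.0), Lonp1 (49.1), Afg3l2 (47.1), Clpx (34.0), Spg7 (31.3), Afg3l1 (12.3) and Lrpprc (10.3) to Htra2 (5.54). Phb, Clpp and Phb2 had ranges that did not overlap, nor did those of Spg7 and Afg3l1, while the other neighbours overlapped. In TG the order was Phb (72.2), Clpp (47.7), Phb2 (33.5), Lonp1 (32.1), Clpx (30.6), Afg3l2 (22.5), Spg7 (13.8), Afg3l1 (11.2), Htra2 (8.21) and Lrpprc (5.24). Htra2 thus stood above Lrpprc in TG, with no overlap between them. Phb2, Lonp1 and Clpx overlapped there, so that their order holds for the means. The place of Afg3l2 in both orders rests on its deposited length of 3085 bases. The highest mean was 28.0 times the lowest in WT and 13.8 times in TG.

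With the deposited scaling, the 10 genes also varied together among the WT mice. WT 5 was the lowest WT library for 10 of 10 members and WT 3 the highest for 10 of 10, against 33.4% and 29.0% of all tested genes. The read total over the divisor implied by the FPKM was 1.18, 1.02, 1.18 and 1.22 in WT 1, 2, 3 and 5. Division by all recovered reads would therefore move WT 2 up against WT 3. The ranks were not computed under that division, and the marker sums that follow also use the deposited scaling. WT 5 also had the highest mitochondrial read share (37.5%), the lowest sum of brown adipocyte markers (2970) and the highest of erythroid markers (12900). Among the WT libraries it was also the highest for pan-adipocyte (10800), macrophage (372), endothelial (102) and T cell markers (4.22), and the lowest for pericyte and smooth muscle (107) and skeletal muscle markers (39.3). WT 3 had the highest sum of brown adipocyte (4880), neutrophil (394) and B cell markers (2.02) in WT, and the lowest of endothelial (44.5), fibroblast (113) and Schwann cell markers (6.78). The part of these in the members' values was not tested. Without WT 5 the 7 members that fell still passed, with log2 changes from -0.70 for Lonp1 to -1.21 for Spg7. Spread relative to the mean was smaller in TG than in WT for 9 of 10 genes, as it was for 73.2% of all tested genes. The coefficient of variation was 11.1% (Clpp) to 25.6% (Lrpprc) in WT and 4.13% (Afg3l2) to 15.0% (Htra2) in TG.

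For the pair of members with the largest changes, the 3 most similar genes were sought as those with the smallest mean absolute difference, over the 8 libraries, between log2(FPKM + 1) values centred on each gene's mean. Since the mean is over both genotypes, genes with an equal genotype change come out as similar. For Spg7 they were Afg3l2 (0.0808), Znrf1 (0.0851) and Acads (0.0861), where the median over all genes was 0.583. Their log2 changes were -1.01, -1.07 and -1.215, beside -1.11 for Spg7. For Phb they were Decr1 (0.0347), Iscu (0.0435) and Pttg1 (0.0452), with a median of 0.571. The log2 changes of these were -1.09, -1.13 and -1.12, beside -1.08 for Phb. Znrf1 encodes a ubiquitin ligase, Acads and Decr1 enzymes of fatty acid oxidation, Iscu a scaffold for iron-sulfur clusters and Pttg1 securin, a regulator of sister chromatid separation.

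Of 13 further mitochondrial proteases and peptidases 4 fell, 3 rose and 6 missed the threshold (median log2 change -0.34). These counts are 4 and 3 of 13 where 21.8% of all tested genes were called lower and 22.3% higher, so shares near the background. Immp2l, a subunit of the inner membrane signal peptidase, fell from 42.6 FPKM in WT to 9.60 in TG (log2 change -2.05, SE 0.192, limma adjusted p = 3.50e-05). Mipep, which trims imported precursors in the matrix, fell by 1.00 on the log2 scale (limma adjusted p = 0.000266). Xpnpep3, an aminopeptidase, rose by 0.60 on the log2 scale (limma adjusted p = 0.00192), with mean FPKM ± SD of 2.16 ± 0.336 for the 4 WT mice and 3.78 ± 0.249 for the 4 TG mice. Yme1l1, the i-AAA protease on the other face of the inner membrane, stood at 8.13 to 9.32 FPKM in WT and 9.77 to 11.7 FPKM in TG (log2 change 0.30, limma adjusted p = 0.0301). Its call did not hold without WT 2 or 5 or TG 2, 3 or 5, with an adjusted p of up to 0.0916. Oma1, which cleaves OPA1 under stress, was at 2.89 and 3.54 FPKM in WT and TG (log2 change 0.23, adjusted p = 0.207). It was called higher under the rescaling without abundant genes (0.52, adjusted p = 0.00522) and when libraries were divided by all reads (0.56, 0.00722). The median of all genes under those scalings was 0.28 and 0.32. Parl, the rhomboid protease, was called lower (log2 change -0.35, adjusted p = 0.0350), but not without any of WT 1, WT 2, WT 3, TG 1, TG 3 or TG 5 (adjusted p up to 0.0913). Pitrm1, which degrades cleaved presequences, was called higher (0.52, 0.0118). Yme1l1, Oma1, Parl and Pitrm1 were named after their values were seen. With division by all recovered reads, where 11.3% of all tested genes were called lower and 44.3% higher, 2 of the 13 fell and 5 rose, again near the background, and the median of the list was 0.08.

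Genes of mitochondrial chaperones and AAA proteins were mostly lower. Of 11 genes 9 fell and 2 missed the threshold (median log2 change -0.97), beside 21.8% of all tested genes that fell. Afg1l, an AAA ATPase of the matrix side, fell from 26.2 to 7.92 FPKM (limma adjusted p = 4.86e-06). The log2 change was -1.27 for Clpb, a disaggregase, and -1.15 for Atad3a, an inner membrane ATPase. Hspd1, Hspe1 and Hspa9, the matrix HSP60, HSP10 and HSP70, were named after their values were seen and had log2 changes of -0.97, -1.10 and -1.08, each past the threshold. Among 10 partners and substrates of the members 5 fell and 5 did not pass (median -0.52). Smdt1, the calcium uniporter regulator whose maturation needs m-AAA proteases, had a log2 change of -1.02. That of Immt, a core protein of cristae junctions, was -0.80, and that of Opa1, the fusion GTPase processed by OMA1 and YME1L1, was -0.63. With division by all recovered reads 6 of the chaperone list (median -0.54) and 2 of the partner list (-0.12) fell, beside 11.3% of all tested genes, and Opa1 was then not called (adjusted p = 0.239, the highest over its alternatives).

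**Figure D4:**
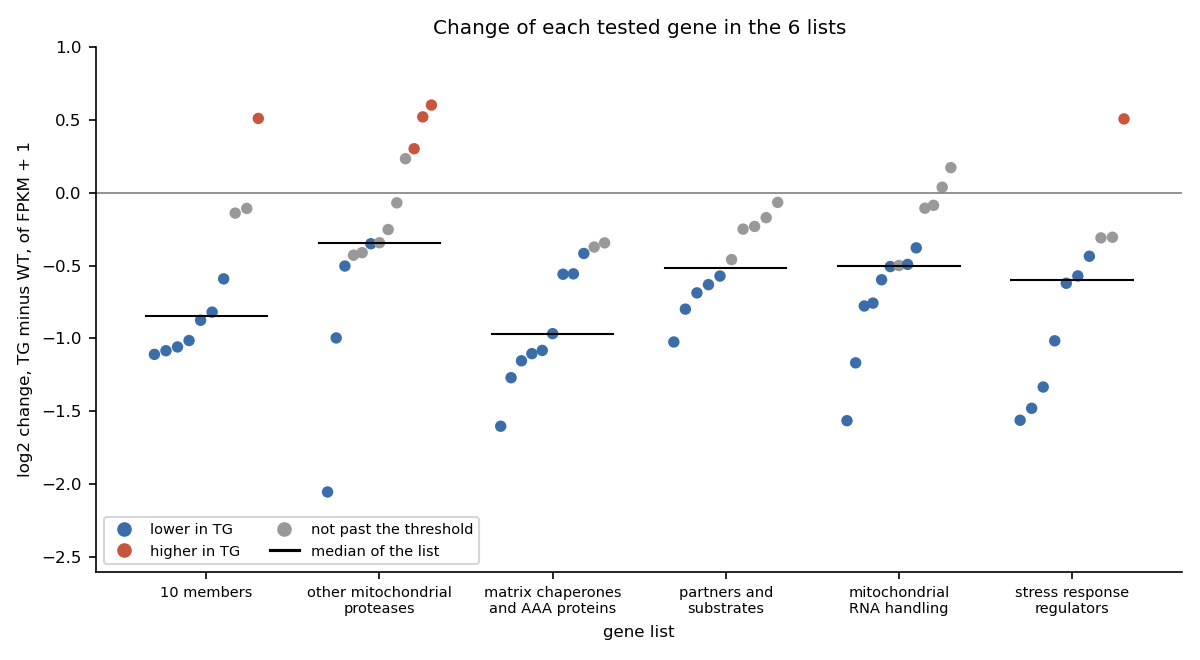
Log2 change (TG minus WT, vertical axis) of each tested gene in the 10 members and in 5 related lists; colour gives the call at an adjusted p under 0.05 and the line is the median of the list. With the deposited scaling the medians run from -0.34 for the other mitochondrial proteases to -0.97 for the matrix chaperones and AAA proteins; divided by all recovered reads they are 0.08 and -0.54.

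Of 13 tested genes that handle mitochondrial RNA, as Lrpprc does, 8 fell and 5 missed the threshold (median log2 change -0.50), where 21.8% of all tested genes fell. The log2 change was -1.56 for Tbrg4 (limma adjusted p = 6.74e-06) and -1.17 for Fastk, RNA-binding proteins of the FASTK family, and -0.78 for Ptcd2, a pentatricopeptide repeat protein like LRPPRC. With division by all recovered reads 4 fell and 2 rose (median -0.14), where 11.3% of all tested genes fell and 44.3% rose. Of 10 tested regulators of the mitochondrial stress response 7 fell, 1 rose and 2 missed the threshold (median -0.60). Cebpb fell from 416 to 128 FPKM (limma log2 change -1.56, SE 0.317, adjusted p = 0.00331). Its WT values were spread, at 255, 429, 731 and 248 FPKM in WT 1, 2, 3 and 5. Without WT 3 its log2 change was -1.24 (limma adjusted p = 0.0022). The log2 change was -1.33 for Atf4, the main transcription factor of the integrated stress response, and -1.02 for Ddit3, which encodes CHOP. Atf5, also named with its value known, was at -0.31 (adjusted p = 0.206) and at 0.12 when libraries were divided by all reads. The median of all genes was 0.32 under that division. The gene of the list that rose was the eIF2 kinase gene Eif2ak1 (0.51, adjusted p = 0.0327). That call did not hold without WT 2 or any 1 TG library, with an adjusted p of up to 0.0819. With division by all recovered reads 4 of these regulators fell and 1 rose (median -0.25).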

How the data were processed

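Per the labels' protocols, RNA of frozen tissue was extracted with TRIzol, and 1 ug of it entered a TruSeq library kit. The submitters' processing notes name bcl2fastq, HISAT2 2.0.5, featureCounts 1.5.0-p3 and mm10; the sources used here give no annotation release, strand setting or FPKM divisor. The authors deposited FPKM for 54532 genes, 1 column per mouse. Multiplied by gene length, the deposited FPKM of a library came out as whole multiples of a common step (within 8.61e-09), and these multiples are the recovered reads.

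The 12508 genes that reached 0.5 FPKM in 4 or more libraries, all 10 members among them, entered limma 3.58.1 (R 4.3.3, trended eBayes, two-sided) on log2(FPKM + 1), a scale that understates changes of low genes, with Benjamini-Hochberg adjustment at 0.05. The p-values measure the spread between mice. The 5 ratios were tested by exact permutation. On simulated data (11981 genes) the limma step recovered 46% of genes raised 2-fold and 56% of genes lowered to 0.5, and made 7 false calls. It recovered 100% of genes changed 4-fold or to 0.25. Far fewer genes were changed there than were called in these data, and the spread was assumed, not taken from these mice. These rates therefore do not give the power of the tests reported here. The members, 5 related lists, 12 marker lists and 4 motifs were chosen with earlier results of these data known. Named genes are the members, Slirp, the 3 lowest p per related list and the genes most like the top members; others are marked in the text. Ddit3 has 2 rows, of which the more abundant was used. Overlaps and near copies (blastn, 90% identity over 20% of the longest coding transcript as minimum) came from GENCODE M21, whose coordinates match the table for 9 of the 10 members. Alternatives were pseudocounts, filters, scalings, voom on recovered reads, a replicate block, leaving out each library and, added after seeing the data, division by reads outside the mitochondrial chromosome and leaving out WT 2 and TG 5.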

Additional observations from a re-analysis of the deposited data

How the results depend on the processing

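The count of members called lower was 7 in every alternative except 2: it was 6 when libraries were rescaled without abundant genes and 5 when they were divided by all recovered reads. Over all tested genes, 1530 of 12585 and 1416 of 12583 were called lower under those scalings, against 2725 of 12508 with the deposited one. The count called higher was 1 or 0 when each library was left out in turn, and 0 with an adjusted p of 0.01, with no filter and without WT 2 and TG 5 (limma; 1 at an unadjusted p under 0.05 in each). Signs turned for Clpx (0.23 with the rescaling without abundant genes, 0.28 with division by all reads), Afg3l1 (0.24, 0.29), Atf5 (0.07, 0.12) and Parl (0.005, 0.051). All these missed the threshold under those scalings. The median of all genes was itself 0.28 and 0.32 there, above each of these values, so none of these genes rose relative to it. The replicate block kept 7 lower and 1 higher members and moved the calls over all genes from 5513 to 4847; it ended those of Yme1l1 (adjusted p = 0.0905) and Parl (0.0858). Same-numbered libraries correlated by -0.19, -0.17, 0.04 and -0.24 in their deviations, so the numbers were not taken as pairs. With the block the log2 ratio differences were unchanged in size, -0.93 for Clpp to Clpx, 0.93 for Afg3l1 to Afg3l2 and -0.20 for Phb to Phb2, but 16 sign flips cannot give a p under 0.125. Leaving out each library gave -0.99 to -0.88, 0.90 to 0.97 and -0.23 to -0.17. The adjusted p was 0.0476 without any 1 WT library and 0.0714 to 0.0952 without any 1 TG library. In the latter runs the raw permutation p of Phb to Phb2 rose to 0.0571. Those of Clpp to Clpx and Afg3l1 to Afg3l2 stayed at 0.0286, the smallest for 4 against 3, so their adjusted p moved with that of Phb to Phb2. Spg7 to Afg3l2 ran from -0.16 to -0.08 and Lrpprc to Slirp from -1.23 to -0.35. The latter was under the threshold only with a pseudocount of 1 (-0.71, permutation adjusted p = 0.0357), which outweighs Slirp and leaves mainly Lrpprc. Why the calls of Lonp1, Lrpprc and Htra2 changed was not tested. Slirp had 6 to 43 reads a library and Htra2 128 to 663, the fewest among the genes of the ratios and members.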
